A study of Mus musculus with 8 samples.

Results

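Aminoacyl-tRNA synthetases are the enzymes that attach each amino acid to its transfer RNA. They were examined here as a set of 36 named genes among the 28239 symbols of a count table, matched by their gene symbols. Of these, 20 genes encode the cytosolic enzymes and 16 encode the mitochondrial enzymes, whose symbols end in 2. All 36 reached at least 2 CPM (the count scaled to the library total) in at least 4 libraries and were tested with the other genes, 12700 in all.

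The libraries came from regulatory T cells (Tregs) made in culture from naive CD4+ T cells, which were taken from the spleens of C57BL/6 wild-type (WT) mice and of Alox15-/- mice, of both sexes and 10 to 12 weeks old. This source is given by the study's methods, whereas the extraction notes of the labels speak of stored spleens as well as of Treg RNA, and which of these the libraries hold was not tested beyond the markers below. Alox15 encodes 12/15-lipoxygenase, an enzyme that oxidises polyunsaturated fatty acids. Every library came from cells cultured for 2 days with 100 U/ml of IL-2, 5 ng/ml of TGF-β and 1 CD3/CD28 bead for each cell, with 4 libraries per group, and the study states 4 Alox15-/- mice. The naive CD4+ T cells were enriched before culture by immunomagnetic negative selection, a step that removes cells of other types. No Cre or tissue promoter is named for the Alox15 allele, and no further sort of the cultured cells before RNA extraction is given in the sources used here. RNA was read as tags from the 3′ ends of transcripts, so a count is a number of tags and levels of different genes were not ranked. The CPM values given for genes are scaled between libraries by the TMM method, which sets library sizes from the bulk of the genes.

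Total counts ranged from 3723151 to 9538962 per library, and the median was 4794416 for libraries labelled Alox15-/- and 6417785 for WT. The Alox15 transcript itself was higher in the libraries labelled Alox15-/- than in WT, with 63.7 to 70.5 against 1.88 to 9.02 CPM (log2 fold change 3.65, SE 0.299, edgeR, Benjamini-Hochberg adjusted p = 1.08e-05). The sources used here do not give which bases of Alox15 the allele lacks, so a 3′ tag may lie outside them and check nothing. The groups are therefore called by their labels, and every direction below rests on those labels. The summed level of 12 T cell and Treg markers was 3715 to 4086 CPM in the libraries labelled Alox15-/- and 3796 to 4494 CPM in WT. Cd3e, Cd4, Il2ra and Foxp3 were detected in all 8 libraries. Of the 12, 0 were called different, 8 had a log2 fold change below 0 and 4 above. Cd4 was 210 to 297 CPM in libraries labelled Alox15-/- against 328 to 352 CPM in WT, and Cd3g 152 to 170 against 111 to 140 CPM. Their log2 fold changes were -0.321 and 0.31, and that of Foxp3 was -0.422 (edgeR, Benjamini-Hochberg adjusted p = 0.357, 0.296 and 0.655). Markers of other cells differed more. Their summed levels take in every listed marker found in the count table, also those with too few counts to be tested. These were 9 erythroid, 12 mast cell, basophil and eosinophil, 12 myeloid, 12 NK and gamma-delta T cell and 8 B cell genes. Of the 7 erythroid markers tested 5 were called higher, and the summed level of the 9 was 933 to 3522 against 92.3 to 159 CPM. Of 10 mast cell, basophil and eosinophil markers 9 were called higher (162 to 439 against 60.3 to 89.8 CPM), of 8 myeloid markers 6 (51.4 to 423 against 14.3 to 23.0 CPM) and of 9 NK and gamma-delta T cell markers 8 (102 to 224 against 36.2 to 58.3 CPM). Of 4 B cell markers 1 was called lower (11.6 to 14.5 against 13.3 to 28.5 CPM), and Prg3, an eosinophil granule gene, was at 0 in WT. The part of these cells in the values of the synthetases was not tested, and in bulk RNA fewer cells of a type cannot be told apart from less RNA per cell.

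Each synthetase joins 1 amino acid to the matching tRNA by way of an adenylate. The enzymes fall into class I and class II by the fold of the catalytic domain. Several cytosolic enzymes sit together in the multi-synthetase complex on scaffold proteins, and mitochondria import a largely separate set for the translation of mitochondrially encoded proteins. Gars and Kars, counted here as cytosolic, are known to encode both the cytosolic and the mitochondrial glycine and lysine enzymes. The cytosolic alanine, glycine, tyrosine and several other synthetases are known targets of ATF4, the transcription factor of the amino acid response, which binds a composite element in many of its target genes. Growing T cells depend on a supply of charged tRNA, and interferon is known to induce the tryptophan enzyme Wars.

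The ATF4 element, written TGATGNAA or on the opposite strand TTNCATCA, was searched in the promoter window of 250 bases before to 50 bases after each annotated start, in RefSeq sequence of GRCm38.p6. Of the 36 genes, 26 had a promoter in the table (12 cytosolic and 14 mitochondrial), and Cars, Hars, Hars2, Lars, Mars, Nars, Pars2, Rars, Vars and Wars had no entry. The element was present in 5 of 12 cytosolic promoters (41.7%), in 0 of 14 mitochondrial promoters and in 1219 of 27025 genes with a promoter (4.51%). It was present in 8 of 27 genes of the amino acid response list (29.6%). Windows that hold it in 4 of these genes are shown because they separate the cytosolic genes by a feature that does not use expression. Asns, the asparagine synthetase gene and a standard ATF4 target, is given beside them, each window runs 5′ to 3′ along its gene, and the capitals mark the 8 bases of the match, whose first base gives the distance from the start.
Asns, chr6:7693215-7693242, minus strand, 23 bases before the start: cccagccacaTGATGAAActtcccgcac
Gars, chr6:55037961-55037988, plus strand, 30 bases before the start: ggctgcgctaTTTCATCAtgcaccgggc
Iars, chr13:49682127-49682154, plus strand, 7 bases after the start: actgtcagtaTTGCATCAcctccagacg
Tars, chr15:11399656-11399683, minus strand, 15 bases before the start: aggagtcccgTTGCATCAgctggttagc
Yars, chr4:129189896-129189923, plus strand, 3 bases after the start: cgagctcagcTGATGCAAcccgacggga

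A match of these letters is a description and not a measured binding site. The 5 genes with a match (Aars, Gars, Iars, Tars and Yars) are described with the expression values below.

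No synthetase was called different between the groups. At an adjusted p under 0.05 in edgeR's quasi-likelihood test, 0 of 20 cytosolic and 0 of 16 mitochondrial synthetases passed, where 1.24% of all tested genes passed, and 5 synthetases had an unadjusted p under 0.05. The smallest adjusted p of any member was 0.451 (Lars2). The levels nevertheless lay mostly on 1 side: the fitted log2 fold change of libraries labelled Alox15-/- over WT was below 0 for 34 of 36 synthetases (94.4%), where 51.8% of all tested genes were below 0. The median over the synthetases was -0.108 and the median over all genes was -0.007. Genes of 1 library share its scaling and its cells, so the 36 genes are not 36 independent observations, and no test was made of the count.

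By compartment, 19 of 20 cytosolic genes (median -0.090, range -0.257 to 0.087) and 15 of 16 mitochondrial genes (median -0.130, range -0.296 to 0.014) were below 0. Wars was the cytosolic exception and Hars2 the mitochondrial one. With the other scalings of the libraries both medians stayed below 0, while Hars2 turned to -0.001 with library totals alone, Nars to 0.015 with upper quartile scaling, and Wars2 to 0.001 with the size factors of DESeq2 and 0.025 with upper quartile scaling. Single libraries moved the medians: the cytosolic one was -0.145 without library 2 labelled Alox15-/- and -0.143 without WT 1, and the mitochondrial one was -0.084 without library 2 labelled Alox15-/- and -0.086 without WT 3, where 12 of 16 mitochondrial genes were below 0. An unadjusted p under 0.05 was reached in the lower direction by 5 of 36 synthetases (13.9%, against 3.38% of all genes), namely Lars2, Qars, Rars2, Farsb and Iars, and in the higher direction by 0 of 36 (against 4.46% of all genes). The count depended on single libraries: it was 0 without WT 4, 1 without WT 2 and 1 without library 1 or library 4 labelled Alox15-/-. Every library labelled Alox15-/- was below every WT library for 3 of 36 (8.33%, against 2.51% of all genes), namely Lars2, Iars and Hars, and above every WT library for 0 of 36 (against 2.74%).

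The intervals limit how large a difference the data allow. The 95% intervals of the cytosolic genes ran from -0.480 to 0.303 in all, which is 0.717-fold to 1.23-fold, and all 20 lay within 0.5 of 0 on the log2 scale. For the mitochondrial genes 9 of 16 intervals lay within 0.5 of 0, and the widest reach was 0.632-fold (Mars2) to 1.29-fold (Hars2). The cytosolic genes had narrower intervals, with a median width of 0.442 against 0.657 for the mitochondrial genes and 0.667 for all genes. Counts per library ran from 232 to 3611 for cytosolic genes and from 26 (Pars2) to 11850 (Lars2) for mitochondrial genes.

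**Figure D1:**
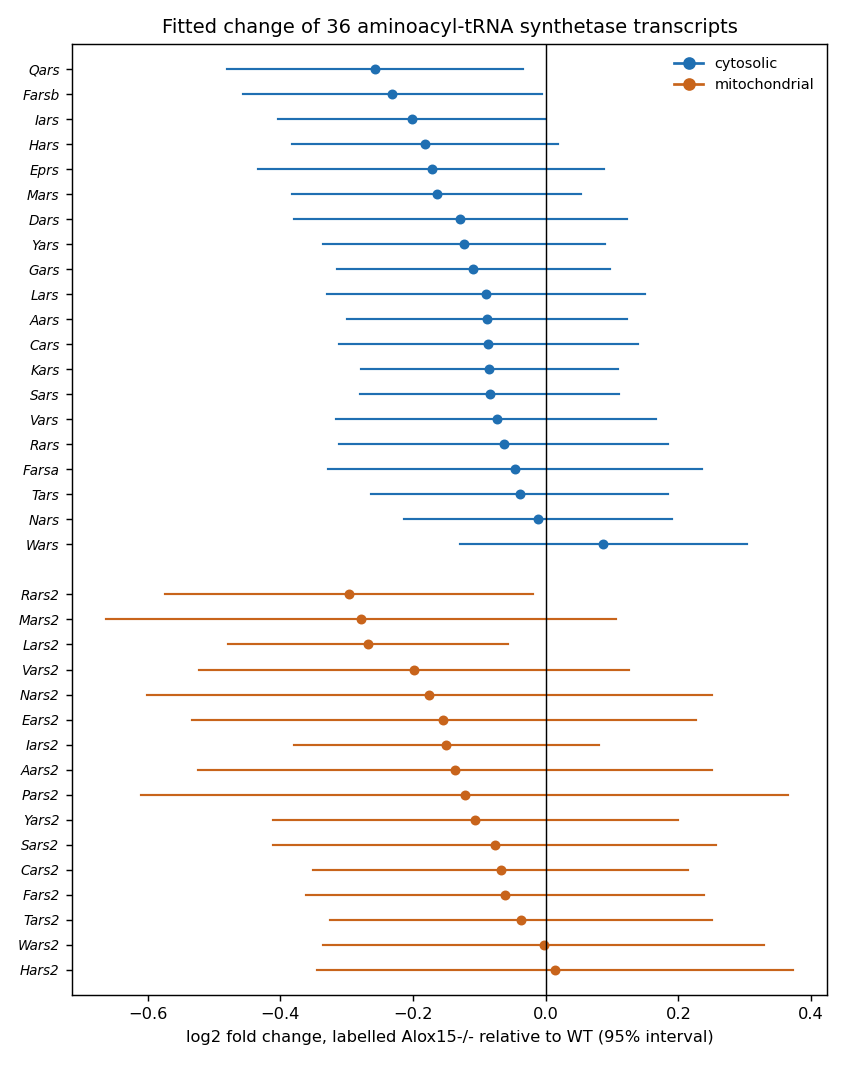
Fitted log2 fold change (horizontal axis, points) with its 95% interval (lines) of each of the 36 synthetase genes, cytosolic in blue and mitochondrial in orange, libraries labelled Alox15-/- relative to WT, n = 4 libraries per group. Points lie left of 0 for 34 genes, and the intervals of 5 genes exclude 0 before adjustment.

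Among the class I enzymes of the complex, Qars, the glutamine enzyme (chr9:108507706-108515941, GRCm38), had the lowest fitted value of the cytosolic genes. It measured 142, 153, 158 and 141 CPM in libraries 1 to 4 labelled Alox15-/- and 154, 180.0, 171 and 205 CPM in WT libraries 1 to 4. The means were 149 ± 8.28 against 178 ± 21.4 CPM (mean ± SD, n = 4 each). Library WT 1 lay within the range of the libraries labelled Alox15-/-, so the groups overlapped. The log2 fold change of -0.26 (SE 0.10, 95% interval -0.48 to -0.034) did not pass the test (edgeR with Benjamini-Hochberg adjustment, unadjusted p = 0.0265, adjusted p = 0.538).

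Iars, the isoleucine enzyme of the same complex (chr13:49682100-49734267), holds the ATF4 element 7 bases after the RefSeq start that set its promoter window. It measured 169, 145, 168 and 146 CPM in libraries 1 to 4 labelled Alox15-/- and 176, 175, 185 and 187 CPM in WT libraries 1 to 4. All libraries labelled Alox15-/- lay below all WT libraries, although the closest values differed by less than 10 CPM. The log2 fold change of -0.20 (SE 0.094, 95% interval -0.40 to -0.001) did not pass the test (edgeR with Benjamini-Hochberg adjustment, unadjusted p = 0.0495, adjusted p = 0.637). Its last 500 bases match Gm4849 at 96.6% over 495 bases, a gene with 1 to 5 counts per library.

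All 8 genes of the multi-synthetase complex (Dars, Eprs, Iars, Kars, Lars, Mars, Qars and Rars) were below 0, with a median of -0.147. Of the 12 cytosolic genes outside it 11 were below 0, with a median of -0.085. Eprs, which carries the glutamate and the proline enzymes on 1 chain, measured 177, 166, 127 and 134 CPM in libraries 1 to 4 labelled Alox15-/- and 168, 174, 189 and 146 CPM in WT libraries 1 to 4. Libraries 3 and 4 labelled Alox15-/- were the lowest for Eprs, and the others overlapped with WT (log2 fold change -0.17, SE 0.12, 95% interval -0.43 to 0.088, edgeR, Benjamini-Hochberg adjusted p = 0.798). Mars, the methionine enzyme, had a log2 fold change of -0.16 and Dars, the aspartate enzyme, of -0.13. Lars (-0.090), Kars (-0.085) and Rars (-0.063), the leucine, lysine and arginine enzymes, had smaller differences. With 1 library left out the values ran from -0.256 to -0.091 for Eprs, -0.224 to -0.110 for Mars and -0.231 to -0.043 for Dars. They ran from -0.152 to -0.004 for Lars, -0.121 to -0.053 for Kars and -0.163 to -0.003 for Rars.

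Outside the complex, Farsb and Farsa encode the β and α chains of the phenylalanine enzyme, which is built from both. Farsb (chr1:78417975-78488897) measured 117, 131, 119 and 97.7 CPM in libraries 1 to 4 labelled Alox15-/- and 139, 140.1, 126 and 139 CPM in WT libraries 1 to 4. Library 4 labelled Alox15-/- was the lowest, and library 2 labelled Alox15-/- lay above WT 3. The log2 fold change of -0.23 (SE 0.11, 95% interval -0.46 to -0.005) did not pass the test (edgeR with Benjamini-Hochberg adjustment, unadjusted p = 0.0453, adjusted p = 0.623). Farsa measured 61.6, 63.0, 89.8 and 82.4 CPM in libraries 1 to 4 labelled Alox15-/- and 69.8, 71.9, 81.5 and 84.8 CPM in WT libraries 1 to 4, with a log2 fold change of -0.046 (SE 0.13, 95% interval -0.33 to 0.23) and an edgeR Benjamini-Hochberg adjusted p of 0.966. The log2 ratio of Farsa to Farsb tags was -0.658 ± 0.397 in the libraries labelled Alox15-/- and -0.826 ± 0.180 in WT (mean ± SD, n = 4 each), and it ran from -1.06 to -0.245 among the former, so the ratio overlapped between the groups.

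Hars, the histidine enzyme, measured 110.3, 124, 121 and 108 CPM in libraries 1 to 4 labelled Alox15-/- and 128, 127, 134 and 137 CPM in WT libraries 1 to 4. Its libraries labelled Alox15-/- were all below WT (log2 fold change -0.18, SE 0.094, 95% interval -0.38 to 0.019, edgeR, Benjamini-Hochberg adjusted p = 0.693). Wars, the tryptophan enzyme (chr12:108860030-108894174), was the only cytosolic gene above 0. It measured 82.6, 97.7, 97.0 and 85.9 CPM in libraries 1 to 4 labelled Alox15-/- and 83.3, 93.2, 83.3 and 81.8 CPM in WT libraries 1 to 4, and the groups overlapped (log2 fold change 0.087, SE 0.10, 95% interval -0.13 to 0.30, edgeR, Benjamini-Hochberg adjusted p = 0.885). In the same libraries 25 of 26 tested genes of an interferon-induced list were above 0, with a median of 0.889, and 11 of them passed the test: Ifitm1, Xaf1, Ifitm3, Isg15, Ifit3, Usp18, Irf7, Gbp7, Irgm2, Gbp5 and Gbp2. The fitted value of Wars lay below that median, and its interval ended at 0.303.

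**Figure D2:**
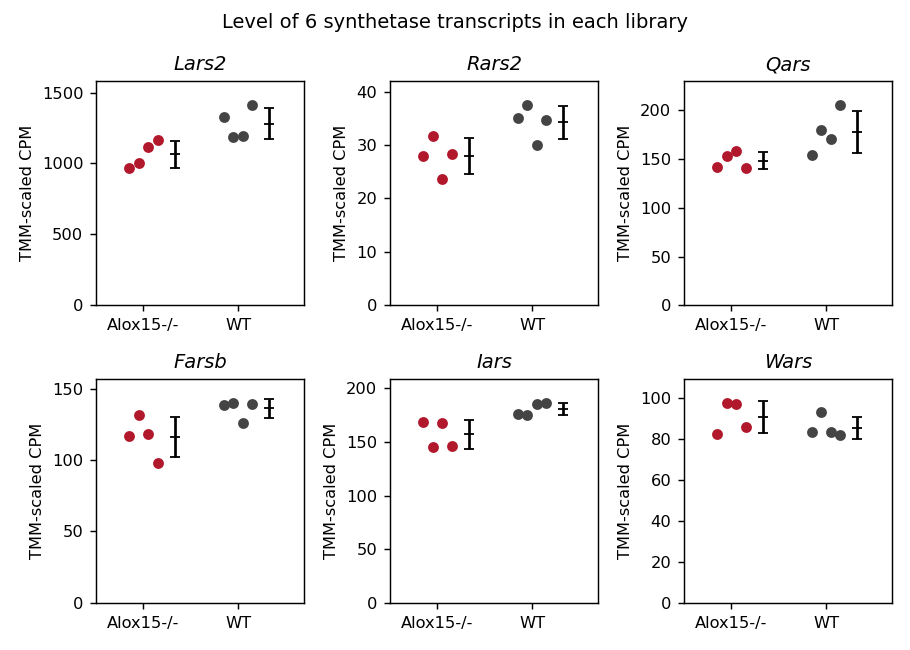
TMM-scaled CPM (vertical axes, starting at 0) of Lars2, Rars2, Qars, Farsb, Iars and Wars in the 4 libraries labelled Alox15-/- (red) and the 4 WT libraries (grey), with the mean ± SD beside the points. The points of Lars2 and Iars do not overlap between the groups, and those of the other genes do.

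The 5 genes with the ATF4 element were all below 0, with a median of -0.109, and the 7 cytosolic genes whose promoter lacks it were all below 0 as well, with a median of -0.129. Gars, the glycine enzyme, measured 341, 384, 372 and 314 CPM in libraries 1 to 4 labelled Alox15-/- and 355, 402, 364 and 399 CPM in WT libraries 1 to 4 (log2 fold change -0.11). Aars, the alanine enzyme, measured 266, 285, 304 and 251 CPM in libraries 1 to 4 labelled Alox15-/- and 258, 305, 311 and 302 CPM in WT libraries 1 to 4 (log2 fold change -0.089). In both genes library 4 labelled Alox15-/- was the lowest of all, and the rest of the values overlapped. Yars, the tyrosine enzyme, and Tars, the threonine enzyme, had log2 fold changes of -0.12 and -0.039. Of the 13 genes listed as ATF4 targets from general knowledge 12 were below 0 (median -0.089), and of the 7 other cytosolic genes 7 were (median -0.129). The remaining cytosolic genes, Cars, Nars, Sars and Vars, which serve cysteine, asparagine, serine and valine, had log2 fold changes from -0.087 to -0.012. By fold of the enzyme, 17 of 18 class I genes (median -0.136) and 16 of 17 class II genes (median -0.085) were below 0, with Eprs left out because it holds both classes.

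The last 500 bases of Aars overlap Exosc6 on the same strand and match it at 100% over 500 bases. A tag from these bases does not show which of the pair it came from, and Exosc6 is not listed in the count table. Exons of Sgpp2, Ddit3, C77080, Naxd, Nrn1 and Rab3gap2 overlap the ends of Farsb, Mars, Yars, Cars2, Fars2 and Iars2 on the opposite strand. Counts per library were 4 to 13 for Sgpp2 beside 484 to 1250 for Farsb, and 77 to 255 for Ddit3 beside 487 to 1521 for Mars. They were 13 to 44 for C77080 (Yars 499 to 1583) and 63 to 204 for Naxd (Cars2 86 to 248). Nrn1 had 13 to 46 (Fars2 80 to 285) and Rab3gap2 103 to 289 (Iars2 252 to 889). The end of a Cars transcript matches Gm15580 on the opposite strand at 100% over 175 bases, and that of Iars2 matches 2010103J01Rik in the same way over 114 bases. Whether strand was used in counting is not given in the sources used here, so reads of each pair cannot be told apart. The values of these 8 synthetase genes and of Iars are uncertain in that respect.

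Among mitochondrial synthetases Lars2, the leucine enzyme (chr9:123366927-123462666), had the smallest p of all 36 genes. It measured 968, 1004, 1114 and 1165 CPM in libraries 1 to 4 labelled Alox15-/- and 1329, 1184, 1195 and 1412 CPM in WT libraries 1 to 4. All libraries labelled Alox15-/- lay below all WT libraries, with library 4 labelled Alox15-/- close to WT 2. The log2 fold change of -0.27 (SE 0.099, 95% interval -0.48 to -0.056) did not pass the test (edgeR with Benjamini-Hochberg adjustment, unadjusted p = 0.0166, adjusted p = 0.451). The last 500 bases of its transcripts had no match of at least 90% identity over 100 bases among other transcripts, and copies elsewhere in the genome were not searched. Whether all tags counted for Lars2 came from its messenger RNA, and none from ribosomal RNA, was not tested. In the same fit mt-Rnr2 and mt-Rnr1, the large and small mitochondrial ribosomal RNAs, had log2 fold changes of -0.112 and -0.162 (edgeR, Benjamini-Hochberg adjusted p = 0.861 and 0.869). Gm42418, a noncoding gene known to overlap ribosomal RNA sequence, was at 0.671, and Gm26917, another noncoding gene, at -0.128 (edgeR, Benjamini-Hochberg adjusted p = 0.645 and 0.923). These genes did not share 1 direction. Lars2 made up 72.7% to 77.7% of the summed tags of the 16 mitochondrial genes.

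Rars2, the arginine enzyme (chr4:34614957-34660167), had the lowest fitted value of all 36 genes. It measured 28.0, 31.8, 23.6 and 28.3 CPM in libraries 1 to 4 labelled Alox15-/- and 35.0, 37.5, 30.1 and 34.6 CPM in WT libraries 1 to 4. Library 2 labelled Alox15-/- lay above WT 3, and the others were below every WT library. The log2 fold change of -0.30 (SE 0.13, 95% interval -0.57 to -0.019) did not pass the test (edgeR with Benjamini-Hochberg adjustment, unadjusted p = 0.0377, adjusted p = 0.6). Mars2, the methionine enzyme, measured 18.8, 16.8, 15.7 and 13.2 CPM in libraries 1 to 4 labelled Alox15-/- and 22.4, 18.9, 14.2 and 22.9 CPM in WT libraries 1 to 4. Its groups overlapped, with WT 3 below 3 of the libraries labelled Alox15-/- (log2 fold change -0.28, SE 0.18, 95% interval -0.66 to 0.11, edgeR, Benjamini-Hochberg adjusted p = 0.773).

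Hars2, the histidine enzyme, was the only mitochondrial gene above 0. It measured 19.1, 21.4, 17.2 and 14.4 CPM in libraries 1 to 4 labelled Alox15-/- and 16.5, 14.6, 20.9 and 18.5 CPM in WT libraries 1 to 4, with both groups over the same range (log2 fold change 0.014, SE 0.17, 95% interval -0.34 to 0.37, edgeR, Benjamini-Hochberg adjusted p = 0.994). Its fitted value turned below 0 in some of the alternative settings. Vars2 (-0.20), Nars2 (-0.18), Ears2 (-0.15), Iars2 (-0.15), Aars2 (-0.14), Pars2 (-0.12) and Yars2 (-0.11), the valine, asparagine, glutamate, isoleucine, alanine, proline and tyrosine enzymes, had log2 fold changes below -0.1. These depended on single libraries. Leaving out 1 library gave -0.268 to -0.020 for Nars2, -0.228 to -0.031 for Ears2 and -0.189 to -0.004 for Yars2. It gave -0.197 to -0.074 for Iars2 and -0.278 to -0.118 for Vars2. Sars2, Cars2, Fars2, Tars2 and Wars2, the serine, cysteine, phenylalanine, threonine and tryptophan enzymes, lay between -0.077 and -0.003.

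For 13 amino acids 1 cytosolic and 1 mitochondrial gene of matching symbol were measured, and the mitochondrial value was lower in 7 of the 13. The ratio of mitochondrial to cytosolic tags within a library separated the groups for 0 of the 13 pairs. Levels of single genes separated the groups for 2.51% (lower) and 2.74% (higher) of all tested genes, so this count says little about the pairs. Phenylalanine, glutamate and proline were left out of the pairs because the cytosolic enzyme has separate chains (Farsa at -0.046 and Farsb at -0.23, beside Fars2 at -0.061) or joins both activities (Eprs at -0.17, beside Ears2 at -0.15 and Pars2 at -0.12). Among the 13 pairs the widest gap in fitted values was for arginine, at -0.063 for Rars and -0.30 for Rars2.

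The summed level of the cytosolic genes was 3298, 3524, 3527 and 3075 CPM in libraries 1 to 4 labelled Alox15-/- and 3396, 3693, 3668 and 3693 CPM in WT libraries 1 to 4. The means of 3356 ± 216 and 3613 ± 145 CPM (mean ± SD, n = 4 each) differed by 7.11%, and the groups overlapped. The summed level of the mitochondrial genes was 1331, 1366, 1506 and 1537 CPM in libraries 1 to 4 labelled Alox15-/- and 1711, 1582, 1609 and 1837 CPM in WT libraries 1 to 4, 14.8% lower in the former with no overlap. Without Lars2 the sums were 363, 362, 392 and 372 against 382, 398, 414 and 426 CPM, 8.09% lower, and WT 1 lay within the range of the libraries labelled Alox15-/-.

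The libraries within each group were not alike. The median deviation of the cytosolic genes from their mean over 8 libraries was -0.091, 0.037, 0.015 and -0.192 on the log2 scale in libraries 1 to 4 labelled Alox15-/-, and -0.067, 0.093, 0.086 and 0.091 in WT libraries 1 to 4. Libraries 2 and 3 labelled Alox15-/- lay above WT 1, and library 4 labelled Alox15-/- was the lowest. For the mitochondrial genes the medians were -0.103, -0.109, -0.033 and -0.002 in the libraries labelled Alox15-/- and -0.005, 0.008, 0.034 and 0.082 in WT, with library 4 labelled Alox15-/- just above WT 1, so the library lowest in cytosolic genes was the highest of its group in mitochondrial genes. Library 4 labelled Alox15-/- gave the lowest value for 13 of 36 synthetases and the highest for 0, while WT 4 gave the highest for 10. Library 4 labelled Alox15-/- also had the lowest summed erythroid, mast cell, myeloid and NK cell markers of its group (933, 162, 51.4 and 102 CPM). The part of those cells in the order of the libraries was not tested. The coefficient of variation within a group was 3.27% to 19.0% for cytosolic genes (median 8.32%) and 4.01% to 28.0% for mitochondrial genes (median 12.6%).

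**Figure D3:**
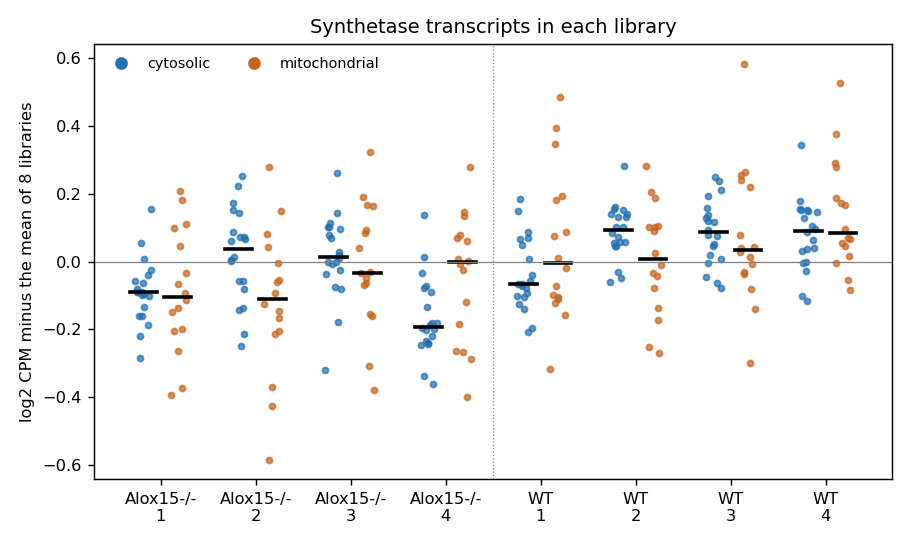
Deviation of log2 CPM from the gene's mean over 8 libraries (vertical axis) for the 20 cytosolic (blue) and 16 mitochondrial (orange) genes in each library, black bars being medians and the dotted line separating the groups. The cytosolic median is lowest, at -0.192, in library 4 labelled Alox15-/-, and those of libraries 2 and 3 labelled Alox15-/- (0.037 and 0.015) lie above that of WT 1 (-0.067).

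Genes that act beside the synthetases were read in the same fit. Of 7 genes for the complex's scaffold proteins and for elongation factor 1, which delivers charged tRNA to the ribosome, 0 passed the test and 6 were below 0 (median -0.063), from Eef1a1 at -0.183 to Aimp1, a scaffold of the complex, at 0.13. Of 6 genes that edit or recycle mischarged tRNA 0 passed and 3 were below 0, from Dtd1 at -0.109 to Dtd2, which removes D-amino acids from tRNA, at 0.294. Of 38 tested genes (40 listed) for tRNA transcription, maturation and export 0 passed and 27 were below 0 (median -0.063), from Rpp14, a subunit of RNase P, at -0.32 to Tsen34, a subunit of the tRNA splicing endonuclease, at 0.336. Of 10 genes for mitochondrial charging helpers and elongation factors 0 passed and 7 were below 0 (median -0.052), from Mtif2, a mitochondrial initiation factor, at -0.191 to Tsfm, an elongation factor, at 0.159.

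Uncharged tRNA activates the kinase GCN2 (Eif2ak4), which raises translation of ATF4. Of 31 tested genes of the amino acid response (32 listed) 0 passed, 15 were below 0 and 16 above, with a median of 0.000. Atf4 was 476 ± 18.4 CPM in the libraries labelled Alox15-/- and 456 ± 40.4 CPM in WT (mean ± SD, n = 4 each, log2 fold change 0.063, edgeR Benjamini-Hochberg adjusted p = 0.914). Asns was 201 ± 22.5 against 237 ± 32.7 CPM (log2 fold change -0.242, edgeR Benjamini-Hochberg adjusted p = 0.655). The lowest and highest fitted values of the list were those of Pycr1, an enzyme of proline synthesis, at -0.347 and of Cebpb, a transcription factor that pairs with ATF4, at 0.52, with edgeR Benjamini-Hochberg adjusted p of 0.546 and 0.475. The synthetase genes had more values below 0 than the response genes (34 of 36 against 15 of 31), and that difference was not tested.

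**Figure D4:**
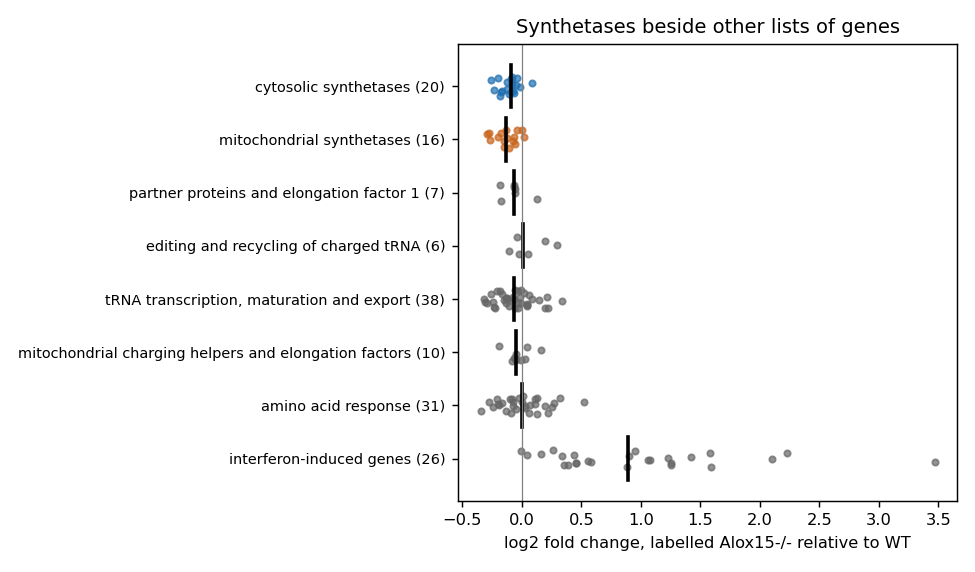
Fitted log2 fold change (horizontal axis) of libraries labelled Alox15-/- relative to WT for each tested gene of 8 lists, with the number of genes in parentheses and black bars at the median. The cytosolic and mitochondrial synthetases sit between -0.296 and 0.087, and the interferon-induced genes have a median of 0.889.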

How the data were processed

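The authors deposited 1 table of raw counts per gene symbol for 8 libraries, made by MACE-seq, which sequences tags from the 3′ ends of transcripts. The labels name a small RNA kit instead, and the submitters' processing notes name Bowtie, edgeR and GRCm38. The counting tool, its use of strand and any handling of duplicates are not given in the sources used here. Columns were matched to libraries by name (4 labelled Alox15-/- and 4 WT). The table lists 28239 symbols, of which 2 are repeated and 26 look like dates, and 0 rows lack a name. No 2 libraries of a group agreed within counting noise (lowest chi-square per gene 4.54).

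Following the study's methods, 12700 genes were kept for testing, those reaching 2 CPM or more in 4 or more libraries. Counts were scaled by TMM and compared with the quasi-likelihood test of edgeR 4.0.16 in R 4.3.3 (glmQLFit and glmQLFTest, not robust, group as the only term, two-sided). Benjamini-Hochberg adjustment ran over all tested genes, with a threshold of 0.05. The fit was tested on simulated data. The biological coefficient of variation was 14.5%. The SE is the log2 fold change divided by the square root of F, and 95% intervals use the t distribution with the moderated degrees of freedom. P-values measure the spread between these libraries, and depth limits the precision of genes with few counts.

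Full values were given for members with an unadjusted p under 0.05, the largest and smallest fitted values of each compartment, the phenylalanine enzyme and Wars, and for list genes past the threshold or at either end. Values of Hars, Eprs, Gars, Aars, Mars2, Atf4, Asns, Cd4, Cd3g, Foxp3, mt-Rnr2, mt-Rnr1, Gm42418 and Gm26917 were added after they were seen. The members and lists were chosen with earlier results of these data known. Positions came from GENCODE M21 (GRCm38), promoters from RefSeq (GRCm38.p6; the windows of 1 gene are not reported here), and near copies from blastn 2.17.0. Figures were drawn with matplotlib 3.10.9. Alternatives were other scalings, filters and tests (DESeq2 1.42.0, limma 3.58.1), a block for the replicate number, and leaving out each library.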

Additional observations from a re-analysis of the deposited data

Results flagged for a closer look

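In 6 of 72 sets of 4 libraries (each of the 36 synthetases in each group), 1 library stood apart from the other 3 by Dixon's criterion, where chance flags about 5%, or 3.6 sets. Among cytosolic genes, Aars was 258 CPM in WT 1 against 302 to 311 CPM in the other WT libraries, and Tars was 129 CPM in WT 1 against 140 to 141 CPM. Farsb was 126 CPM in WT 3 against 139 to 140 CPM, which places WT 3 below 1 library labelled Alox15-/-. Wars was 93.2 CPM in WT 2 against 81.8 to 83.3 CPM. Among mitochondrial genes, Aars2 was 21.8 CPM in WT 4 against 13.95 to 14.26 CPM, and Nars2 was 9.78 CPM in library 4 labelled Alox15-/- against 7.87 to 7.97 CPM.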

How the results depend on the processing

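No synthetase was called in any of 19 alternative settings, and the smallest adjusted p of any synthetase in any of them was 0.264. The cytosolic median was -0.145 to -0.061, with 17 to 19 genes below 0, and the mitochondrial median -0.188 to -0.084, with 12 to 16 genes below 0. Leaving out 1 library moved the mitochondrial median from -0.188 (without WT 2) to -0.084 (without library 2 labelled Alox15-/-). The genes called among all tested were 158, and became 388 with no filter on low counts, 100 with at least 10 counts in every library, and 86 to 172 leaving out 1 library (95, 86 and 93 without libraries 1, 2 and 3 labelled Alox15-/-, 105 without WT 2). The cause was not tested. The number of synthetases at an unadjusted p under 0.05 was 5, and 0 to 5 over the alternatives, with 2 under the DESeq2 Wald test and 3 under the edgeR exact test.

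The fitted sign turned in 29 of 684 values, in 10 synthetases. Hars2 was -0.001 with library totals alone, -0.011 with no filter and -0.019 with limma-voom. Nars was 0.015 with upper quartile scaling, and Wars2 was 0.001 with the size factors of DESeq2, 0.025 with upper quartile scaling and 0.005 with at least 10 counts in every library. Leaving out 1 library gave ranges of -0.221 to 0.034 for Aars2, -0.127 to 0.033 for Fars2, -0.145 to 0.034 for Farsa, -0.074 to 0.121 for Hars2 and -0.042 to 0.047 for Nars. The ranges were -0.251 to 0.118 for Pars2, -0.212 to 0.026 for Sars2, -0.104 to 0.032 for Tars, -0.136 to 0.061 for Tars2 and -0.073 to 0.098 for Wars2.

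Replicate numbers are shared by the groups. The deviations of same-numbered libraries had correlations of 0.069, 0.165, -0.178 and -0.018, and those of differently numbered libraries ran from -0.213 to 0.149. The highest, 0.165, was that of the libraries numbered 2. Such correlations cannot show whether a shared number stands for a shared batch. With the replicate number as a block 146 genes and 0 synthetases were called, and 3 synthetases had an unadjusted p under 0.05.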

Other observations

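The E-box CACGTG, which reads the same on both strands and is bound by MYC and related factors, was present in 4 of 12 cytosolic synthetase promoters (33.3%, Aars, Farsb, Iars and Tars), in 1 of 14 mitochondrial ones (7.14%, Ears2) and in 2187 of 27025 genes with a promoter (8.09%). It was searched in the same windows as the ATF4 element, and no E-box lay within the stretches printed for that element. A match says only that these letters occur there, and binding was not measured.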
